A study of Mus musculus with 8 samples.

Results

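Transcripts of 9 genes of the CREB pathway were followed in the CA1 region of the mouse hippocampus after Cas9 editing with a guide against SIK3. They are the CREB family factors Creb1, Crem and Atf1, the coactivators Crtc1, Crtc2 and Crtc3, the acetyltransferases Crebbp and Ep300, and the coactivator gene Ppargc1a. They were chosen by name, as the rows of the count files whose Ensembl identifier carries one of these symbols, and all 9 were found among 37315 genes. All 9 had enough reads to be tested. All 8 mice carried Cas9 and all received a stereotaxic injection of adeno-associated virus (AAV). In 4 of them the virus carried a SIK3 guide (called KO) and in 4 a control guide, and no uninjected mice are among the samples. Controls 1 and 3 and KO 1 and 2 were male, and controls 2 and 4 and KO 3 and 4 were female. The numbers only name the mice and pair none of them. Each library was made from the dissected tissue of 1 mouse, so replicates are separate animals. The age of the mice, the promoter behind Cas9, the viral serotype and the infected cells are not described in the labels.

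CREB is a transcription factor that sits on cAMP response elements (CRE) and is switched on by phosphorylation of its kinase-inducible domain, which then binds the acetyltransferases CBP (encoded by Crebbp) and p300 (encoded by Ep300). CRTC proteins bind the basic leucine zipper of CREB instead. Salt-inducible kinases such as SIK3 phosphorylate CRTC proteins, which are then held in the cytoplasm by 14-3-3 proteins until calcineurin removes the phosphate. In hippocampal neurons, synaptic calcium and cAMP send CRTC1 to the nucleus, where it takes part in the gene expression behind lasting synaptic change and memory. This control works on the proteins and their place in the cell, which read counts of mRNA do not measure. The comparison of the guides therefore asks whether the mRNA of the pathway's own factors differed.

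The libraries held 13561662 to 18619928 counts, with males at 13561662 to 15165413 and females at 16743701 to 18619928. Sik3 itself averaged 147 ± 12.8 CPM with the control guide (counts scaled to a common library size, TMM) and 86.2 ± 9.73 CPM with the SIK3 guide (SD, n = 4 each), and KO libraries retained 58.6% of the control level (edgeR, adjusted p = 0.0202). The adjusted p of Sik3 was 0.068 with dentate markers as a covariate, and 0.108, 0.0866, 0.0865 and 0.242 without control 2, control 3, KO 2 and KO 3, so its call was lost in those 5 fits, while its log2 fold change stayed between -0.80 and -0.75 there. The CA1 markers Wfs1 and Fibcd1 were at 121 and 77.4 CPM in controls, so RNA of CA1 neurons was present. Prox1, a marker of dentate granule neurons that some interneurons share, was present at 287 CPM with the control guide and 275 CPM with the SIK3 guide, so the tissue also held RNA of other hippocampal cells. In such bulk tissue, fewer cells of a type and less RNA per cell cannot be told apart.

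The CRE letters were searched in RefSeq promoter windows of 300 bases (250 before to 50 after a gene's start, build GRCm38.p6), because CREB factors and CRTC act on genes that carry this element. Entries were matched for 7 of the 9 genes (Creb1, Atf1, Crtc1, Crtc3, Crebbp, Ep300 and Ppargc1a). The full element TGACGTCA was in 0 of these 7 windows and in 1.79% of all 32851 windows. The shorter letters TGACG, searched on both strands and contained in the full element, were in 2 of the 7 windows and in 20.8% of all windows. Those 2 are shown with 60 bases each, 5′ to 3′ on the gene's own strand and wholly before its start, with the 5 matching letters in capitals. A match here is a description of the letters and not of binding. The Ppargc1a window is chr5:51567742-51567801 on the minus strand, with the match beginning 49 bases before the RefSeq start and read on the opposite strand, and the Atf1 window is chr15:100227742-100227801 on the plus strand, with the match beginning 90 bases before the RefSeq start. The gene start in GENCODE M21, used for the coordinates of the genes, lies 40 bases before RefSeq's for Atf1 and 1 base before it for Ppargc1a, so that the matches begin 50 and 48 bases before the GENCODE starts.
Ppargc1a: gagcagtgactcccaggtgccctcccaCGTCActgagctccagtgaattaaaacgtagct
Atf1: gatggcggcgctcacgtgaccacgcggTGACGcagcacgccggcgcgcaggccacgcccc

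Crtc1 was the most abundant of the 9 transcripts per exon length, and Crtc3 the least abundant. Levels between genes are given as TPM (counts divided by the summed length of a gene's exons in GENCODE M21 and scaled to the same total in each library), as mean ± SD over all 8 libraries. Crtc1 was at 62.9 ± 7.55 TPM, with a range of 53.3 to 77.1 that no other member reached. Ppargc1a followed at 36.0 ± 3.90 TPM and Ep300 at 35.0 ± 1.54 TPM, and their ranges overlapped. Crtc2 was at 29.97 ± 2.03 TPM and Creb1 at 29.4 ± 1.36 TPM, which also overlapped, with Crtc2 the higher in 3 of 8 libraries. Crebbp was at 18.7 ± 1.22 TPM and Atf1 at 16.1 ± 0.722 TPM, and Crebbp was the higher of this pair in 8 of 8 libraries although their ranges overlapped. Crem was at 8.76 ± 1.13 TPM and Crtc3 at 6.77 ± 0.951 TPM, with Crem the higher in 7 of 8 libraries. When the longest annotated transcript was used as the length, a choice made after seeing the data, Crtc1 stayed first at 56.1 TPM and Crtc3 last at 10.7 TPM, while Ppargc1a moved from rank 2 to rank 5 at 30.05 TPM and Creb1 rose to rank 3 at 39.6 TPM. The order in the middle therefore depends on which transcripts are counted as the gene's length.

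**Figure D1:**
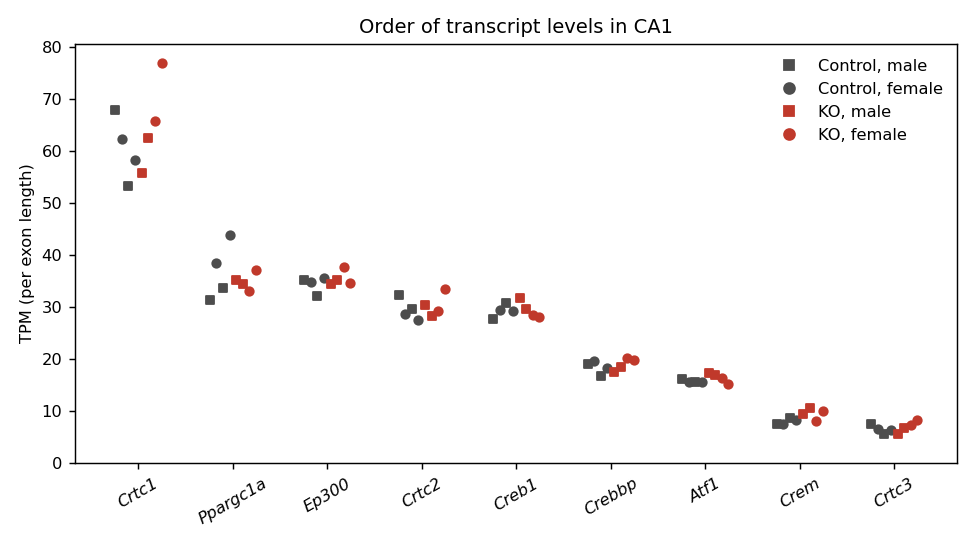
TPM of each gene (vertical axis, per exon length) in each of the 8 libraries, ordered by the mean, with controls in grey, KO in red, males as squares and females as circles. Crtc1 lies between 53.3 and 77.1 TPM, above all others, and Crem and Crtc3 lie at or under 10.5 TPM.

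None of the 9 genes passed the test between the guides. With edgeR's quasi-likelihood test and adjustment over all 14788 tested genes, 0 of 9 members were called, where 0.0135% of all genes were, and 0 were called by DESeq2 or limma voom. At an unadjusted p under 0.05 there was 1 member, Crem, against 2.81% of all tested genes. In 0 of 9 members were the KO and control libraries fully apart, against 1.74% of all genes. Log2 fold changes ran from -0.075 for Ppargc1a to 0.25 for Crem, with a median of 0.041 (all genes, 0.0036), and 8 of 9 were positive, where 51.5% of all genes were. The genes' 95% intervals reached 0.13 to 0.24 log2 units to each side of their estimates. Their counting error was at most 7.96% (1 SD of a Poisson count at the lowest count, 158 reads of Crem).

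**Figure D2:**
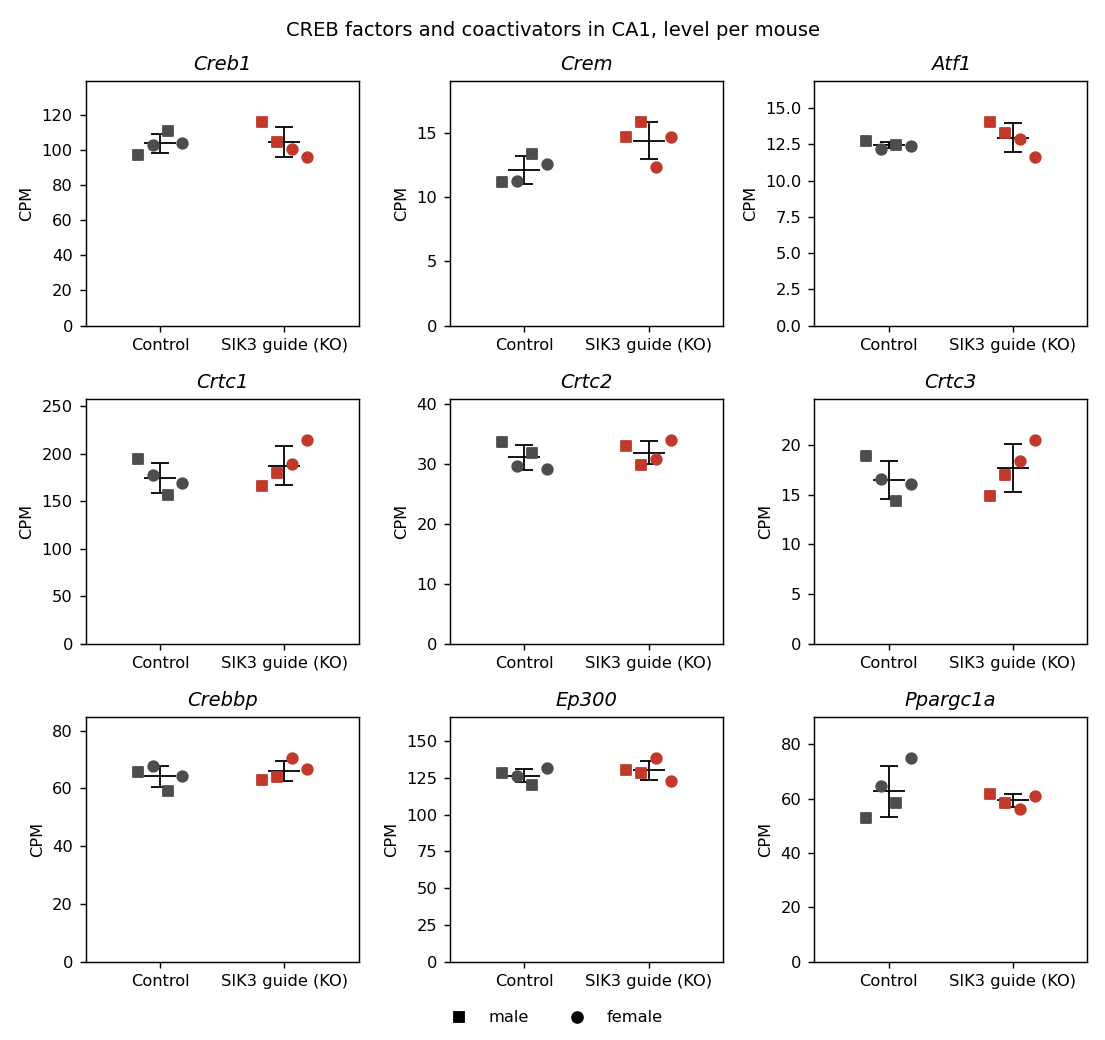
CPM of each gene (vertical axis from 0, TMM scaled) in control and KO mice, with points for single libraries, squares for males, circles for females, and a bar for the mean with its SD (n = 4). The groups overlap in all 9 panels, and in the Crem panel 3 of 4 KO points lie above every control.

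Among the CREB family factors, Crem had the largest difference and did not pass. Crem (ENSMUSG00000063889, chromosome 18, minus strand) encodes activating and repressing forms of a CRE binding factor, among them the inducible repressor ICER, which is made from an internal promoter under CREB's own control. Its 39 annotated transcripts were counted as 1 gene, so these forms were not separated. Crem was at 11.2, 11.3, 13.4 and 12.6 CPM in controls 1 to 4 and at 14.7, 15.9, 12.4 and 14.7 CPM in KO 1 to 4. KO 1, 2 and 4 were above every control, and KO 3 lay within the control range. The control mean was 12.1 ± 1.07 CPM and the KO mean 14.4 ± 1.46 CPM (SD, n = 4 per group), a ratio of 1.19 from the fit with a 95% interval of 1.02 to 1.39. The log2 fold change was 0.25 ± 0.10 (SE; edgeR, adjusted p near 1, unadjusted p = 0.0327). It was 0.20 with dentate markers as a covariate and 0.26 with the GC slope of each library as a covariate. When each library was left out in turn it ran from 0.18 without control 1 to 0.31 without KO 3, and it was positive in every fit. Its unadjusted p was 0.05 or over with dentate markers as a covariate (0.109), by DESeq2 (0.069), and without control 1 (0.11), control 2 (0.0826), KO 2 (0.101) or KO 4 (0.102).

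Creb1, the founding member of the family, showed no difference that could be told from 0. Creb1 (ENSMUSG00000025958, chromosome 1, 64532645 to 64604548, plus strand, GRCm38) was at 97.4, 103, 111 and 104 CPM in controls 1 to 4 and at 116, 105, 100.4 and 96.2 CPM in KO 1 to 4. The KO libraries spanned the control range on both sides, with KO 1 highest and KO 4 lowest of all 8. Its log2 fold change was 0.0048 ± 0.066 (SE), and the 95% interval of the ratio was 0.909 to 1.11. Atf1 (ENSMUSG00000023027, chromosome 15, 100227819 to 100261244, plus strand), which forms dimers with CREB, was at 12.7, 12.2, 12.5 and 12.4 CPM in controls and at 14.05, 13.3, 12.9 and 11.6 CPM in KO mice. KO 1, 2 and 3 were above every control and KO 4 was below all of them. The Atf1 log2 fold change was 0.056 ± 0.089 (SE). Per exon length, Creb1 made up 55.2% ± 0.980 of the summed level of the family in controls and 53.2% ± 1.05 in KO mice, and Crem 15.02% ± 0.766 and 17.2% ± 1.67 (SD, n = 4 each). The Crem share was 14.3% to 15.8% in controls and 15.4% to 18.8% in KO mice, so the groups overlapped.

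The CRTC coactivators, which are the substrates that link SIK kinases to CREB, did not pass. Crtc1 (ENSMUSG00000003575, chromosome 8, 70382355 to 70439579, minus strand), the neuronal member, was at 194, 177, 156 and 169 CPM in controls 1 to 4 and at 166, 179, 189 and 214 CPM in KO 1 to 4. Only KO 4 lay above the control range. The means were 174 ± 15.9 and 187 ± 20.5 CPM (SD, n = 4 each), with a log2 fold change of 0.10 ± 0.081 (SE). Crtc2 (ENSMUSG00000027936, chromosome 3, 90254163 to 90264125, plus strand), best known as the fasting-responsive coactivator in liver, was at 33.8, 29.7, 31.8 and 29.2 CPM in controls and at 33.0, 29.8, 30.9 and 34.1 CPM in KO mice. The Crtc2 groups covered nearly the same range, and the log2 fold change was 0.040 ± 0.076 (SE). Crtc3 (ENSMUSG00000030527, chromosome 7, 80586627 to 80688877, minus strand), the third member, was at 18.96, 16.6, 14.4 and 16.1 CPM in controls and at 14.9, 17.0, 18.4 and 20.5 CPM in KO mice. Its log2 fold change was 0.10 ± 0.11 (SE). In all 8 libraries Crtc1 supplied 60.2% to 64.8% of the summed CRTC level per exon length, Crtc2 28.1% to 33.5% and Crtc3 6.18% to 7.11%. The mean shares of controls and KO mice differed by less than their SDs, at 62.6% ± 1.66 and 63.5% ± 1.82 for Crtc1 (n = 4 each).

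Levels of Crtc1 and Crtc3 went with the base composition of the libraries. The slope of a library's log2 CPM over gene GC content, in log2 units per 10 percentage points, was 0.14, -0.049, -0.091 and -0.12 in controls 1 to 4 and -0.16, 0.089, 0.029 and 0.16 in KO 1 to 4, so that both groups held both signs. Crtc1 and Crtc3 were lowest in control 3 and KO 1, which had negative slopes, and highest in control 1 and KO 4, which had the steepest positive slopes. The transcripts of Crtc1, Crtc2 and Crtc3 are 56.5%, 54.5% and 57.0% GC, while those of Creb1, Crem and Ppargc1a are 39.6%, 43.2% and 41.7%. KO 1 and KO 4 had the steepest negative and positive slopes, and Crtc2 differed little between them (33.0 and 34.1 CPM). Crem (14.7 CPM in both) and Ppargc1a (61.8 and 60.9 CPM) also differed little, while Creb1 was at 116 and 96.2 CPM. The remaining members, Crebbp, Ep300 and Atf1, are 51.7%, 51.1% and 45.2% GC. They were at 62.9, 130.3 and 14.05 CPM in KO 1 and at 66.6, 123 and 11.6 CPM in KO 4. For Crtc1 and Crtc3 the order was not strict. Control 4 had a more negative slope than control 3 but more Crtc1 (169 against 156 CPM) and Crtc3 (16.1 against 14.4 CPM). With the slope as a covariate, the log2 fold change of Crtc1 was 0.047 and that of Crtc3 0.024, against 0.10 for both without it. The same covariate moved Creb1 from 0.0048 to 0.044 and Ppargc1a from -0.075 to -0.031. The slope was taken from the same 8 libraries, and the part of base composition in the differences of these genes was not tested.

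**Figure D3:**
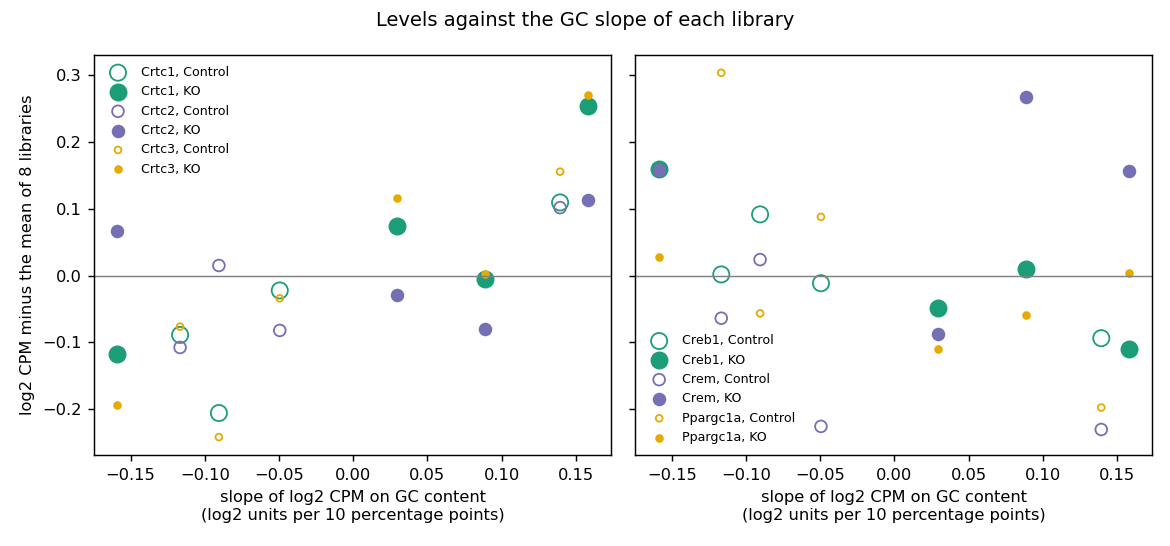
Log2 CPM of 6 genes, centred on the mean of 8 libraries (vertical axis), against each library's slope over GC content (horizontal axis, log2 units per 10 percentage points), with open circles for controls and filled circles for KO. Crtc1 and Crtc3 lie higher at the positive slopes of control 1 and KO 4 and lower at negative slopes, and Creb1 lies below its mean in these 2 libraries.

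The acetyltransferases had the lowest coefficients of variation of the 9 genes. Crebbp (ENSMUSG00000022521, chromosome 16, 4081328 to 4213997, minus strand) was at 65.6, 67.7, 59.2 and 64.3 CPM in controls 1 to 4 and at 62.9, 64.0, 70.6 and 66.6 CPM in KO 1 to 4. Ep300 (ENSMUSG00000055024, chromosome 15, 81585351 to 81652077, plus strand) was at 128, 126, 120.4 and 132 CPM in controls and at 130.3, 129, 139 and 123 CPM in KO mice. In both genes KO 3 alone lay above the control range. The log2 fold changes were 0.041 ± 0.060 for Crebbp and 0.039 ± 0.057 for Ep300 (SE), and the 95% intervals of the ratios were 0.940 to 1.13 and 0.942 to 1.12. Over all 8 libraries the coefficient of variation was 5.22% for Crebbp and 4.35% for Ep300, against 5.80% for Atf1, the next lowest, and 12.9% for Crem. These values include counting error, which at the lowest count was 3.53% for Crebbp, 2.47% for Ep300 and 7.69% for Atf1. Ep300 made up 63.6% to 66.3% of the summed level of the pair per exon length.

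Ppargc1a (ENSMUSG00000029167, chromosome 5, 51454250 to 51567726, minus strand) encodes PGC-1alpha, a coactivator of mitochondrial genes whose own promoter is a CREB and CRTC target in liver and muscle and which in forebrain is enriched in parvalbumin interneurons. Its bases with the short CRE letters are printed above. The searched window did not hold the full element, and whether the printed letters take part in that regulation was not tested. Ppargc1a was at 52.9, 64.5, 58.4 and 74.9 CPM in controls 1 to 4 and at 61.8, 58.2, 56.2 and 60.9 CPM in KO 1 to 4. All 4 KO libraries lay inside the control range, and the spread was wider in controls (62.7 ± 9.45 CPM) than in KO mice (59.3 ± 2.56 CPM; SD, n = 4 each), a difference in spread that was not tested. The log2 fold change was -0.075 ± 0.087 (SE), and without control 4 it was 0.0066.

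**Figure D4:**
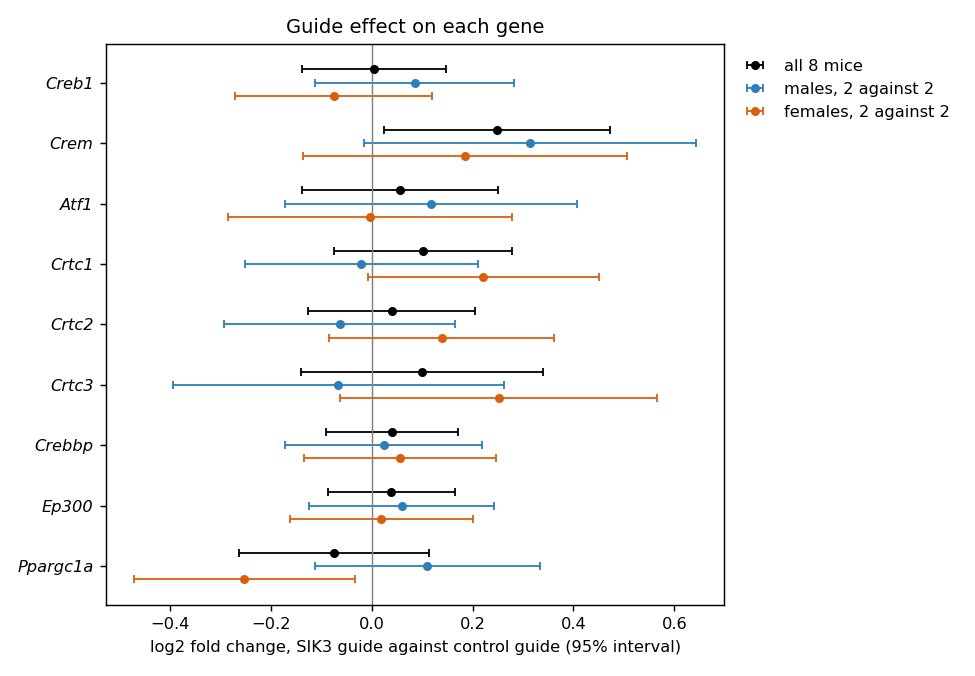
Log2 fold change of each gene between SIK3 and control guide (horizontal axis) with its unadjusted 95% interval, for all 8 mice in black, for males in blue and for females in orange. The intervals for all 8 mice cover 0 except that of Crem (0.024 to 0.47), and for Ppargc1a the estimate is 0.11 in males and -0.25 in females.

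The guide's effect was also compared between the sexes, each with 2 mice per guide. For the interaction of sex and guide 0 of 9 members passed in edgeR (0% of all tested genes), and 0 passed by DESeq2 or limma voom. At an unadjusted p under 0.05 there was 1 member, Ppargc1a, against 5.42% of all genes. The number of members under 0.05 was 0 in edgeR with the GC slope as a covariate. It was 1 with dentate markers as a covariate, by DESeq2 and by limma voom. The number also changed in some fits that left out 1 library. Such fits keep 1 mouse in a group of sex and guide, so their counts are not given. Ppargc1a was at 64.5 and 74.9 CPM in control females and at 56.2 and 60.9 CPM in KO females, while males were at 52.9 and 58.4 CPM with the control guide and at 61.8 and 58.2 CPM with the SIK3 guide. The log2 fold change was -0.25 ± 0.09998 in females and 0.11 ± 0.10 in males (SE), a difference of -0.36 ± 0.14 (edgeR, adjusted p = 0.765). Control females were above KO females, and in males the ranges overlapped by a small margin. Crtc1, Crtc2 and Crtc3 had log2 fold changes of 0.22, 0.14 and 0.25 in females and of -0.021, -0.063 and -0.066 in males, with interactions that did not pass (adjusted p = 0.765, 0.769 and 0.765). Beside these values, both KO females had positive GC slopes and both control females had negative ones. The part of base composition in the female values of Crtc1, Crtc2 and Crtc3 was not tested. The log2 fold change of Crem was positive in both sexes, at 0.31 ± 0.15 in males and 0.18 ± 0.15 in females (SE), and neither value passed. In females the Crem groups overlapped, with KO 3 at 12.4 CPM and control 4 at 12.6 CPM. Within males 0 of 9 members passed in edgeR (0% of all genes), and 0 had an unadjusted p under 0.05 (1.83% of all genes). Within females 0 of 9 passed (0.0406% of all genes), and 1, Ppargc1a, had an unadjusted p under 0.05 (7.11% of all genes).

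Between females and males, with the guide as a covariate, 0 of 9 members passed in edgeR, against 0.0609% of all genes. At an unadjusted p under 0.05 there were 0 (6.05% of all genes), and DESeq2 and limma voom called 0. The number of members under 0.05 in edgeR was 2 with the GC slope as a covariate. It was 3 without control 1 and 1 without KO 1 or KO 3. Log2 differences, female against male, ran from -0.11 for Crem to 0.14 for Ppargc1a. The female mean of Ppargc1a was 64.1 CPM and its male mean 57.8 CPM, and Crebbp averaged 67.3 and 62.9 CPM. Females were also sequenced more deeply, so depth and sex cannot be told apart.

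The genes around these factors were described by lists written from textbook knowledge. Of 13 kinases and binding proteins that act on CRTC localisation, Sik3 fell and the other 12 did not pass, among them the 14-3-3 genes Ywhah (log2 fold change -0.082 ± 0.056, SE) and Ywhaq (-0.057 ± 0.052). The related kinases averaged 22.4 and 22.5 CPM with control and SIK3 guide for Sik2, and 5.25 and 5.40 CPM for Sik1. Among 8 calcineurin subunits and regulators, 0 passed in edgeR, none had an unadjusted p under 0.05, and the median log2 fold change was -0.033. Ppp3r1, the regulatory subunit of calcineurin, averaged 1278 ± 84.6 CPM with the control guide and 1183 ± 142 CPM with the SIK3 guide (SD, n = 4 per group), and Rcan2 and Ppp3cc had log2 fold changes of -0.11 and 0.10. Among 22 kinases and phosphatases of CREB, 0 passed and 0 had an unadjusted p under 0.05, with Camkk2 at -0.11, Ppp1cc at -0.093 and Camk1 at 0.13. Of 20 other bZIP factors of the CREB and ATF class, 17 were tested, 0 passed and 0 had an unadjusted p under 0.05, with Crebzf at -0.078, Creb3l2 at -0.11 and Atf6 at -0.064.

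Known CREB and CRTC target genes did not pass either. Of 39 listed targets 37 were tested, 0 passed, 1 was higher and 0 were lower at an unadjusted p under 0.05 (1.79% and 1.03% of all genes), and the median log2 fold change was 0.030. The gene with the smallest p was Scg2, which encodes secretogranin II, at 243 ± 26.2 CPM with the control guide and 273 ± 11.03 CPM with the SIK3 guide (SD, n = 4 per group), and Tac1 and Nptx2 followed at 0.30 and -0.21. Fos, an immediate early gene named after its values were seen, was at 4.90, 6.35, 7.66 and 10.9 CPM in controls 1 to 4 and at 2.02, 7.77, 2.32 and 13.5 CPM in KO 1 to 4. KO 1 and 3 were below every control, KO 4 was above every control, and KO 2 lay within the control range.

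**Figure D5:**
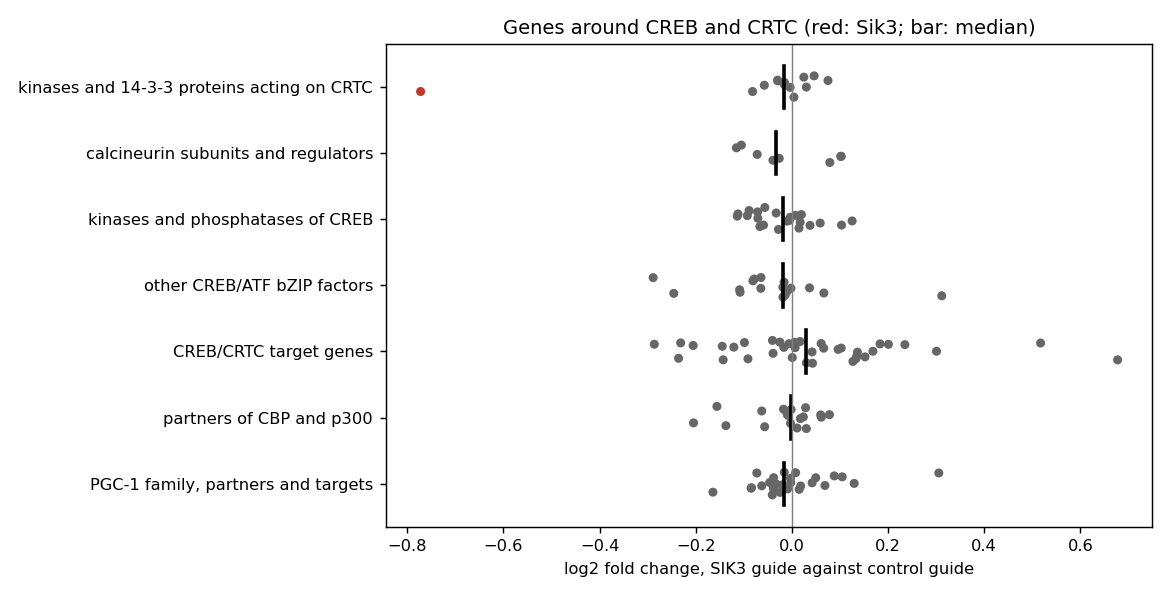
Log2 fold change between SIK3 and control guide (horizontal axis) of every tested gene in 7 lists around CREB and CRTC, with a bar for each list's median. Sik3, in red at -0.77, is the only gene of these lists that passed, and all medians lie close to 0.

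Partners of the acetyltransferases and of PGC-1alpha completed the pathway. Of 20 partners of CBP and p300, 18 were tested, 0 passed and 1 had an unadjusted p under 0.05 in edgeR, a lower one, against 1.03% of all genes that were lower. That gene was Sirt1, a deacetylase that acts on CRTC2 and PGC-1alpha, at 33.5, 35.8, 39.7 and 37.8 CPM in controls 1 to 4 and at 34.01, 32.9, 29.6 and 31.1 CPM in KO 1 to 4. Only KO 1 overlapped the controls, and the log2 fold change was -0.20 ± 0.075 (SE; adjusted p near 1). Ncoa3 and Hdac1 were at -0.14 and -0.16. All 27 genes of the PGC-1 list were tested, 0 passed and 0 had an unadjusted p under 0.05, with Pprc1 at 0.13, Tfb1m at 0.31 and Syt2, a synaptotagmin that depends on PGC-1alpha in interneurons, at -0.16. Pvalb, the calcium-binding protein that marks the interneurons in which Ppargc1a is enriched, averaged 7.64 CPM with the control guide and 7.55 CPM with the SIK3 guide.

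Markers of other cell types in the tissue were set beside Crem. None of the 10 endothelial and pericyte markers was at 0, with a summed level of 346.5 to 369 CPM in controls and 365 to 418 CPM in KO mice. Of these 10, 9 had a positive log2 fold change, where 51.5% of all tested genes did. Of the same 10, 3 were higher at an unadjusted p under 0.05 in edgeR, against 1.79% of all genes. The 10 microglia markers held 249 to 279 CPM in controls and 266 to 326 CPM in KO mice, and 10 of 10 were positive with a median log2 fold change of 0.16. Averaged over these 10 genes, log2 CPM minus the control mean was 0.18, -0.13, -0.0079 and -0.034 in controls 1 to 4. It was 0.0027, 0.074, 0.092 and 0.49 in KO 1 to 4, so that only KO 4 lay above the control range. The 8 meningeal fibroblast markers held 41.2 to 50.4 CPM and 43.5 to 58.6 CPM, and 8 of 8 were positive with a median of 0.16. In these 2 lists 1 gene each was higher at an unadjusted p under 0.05. Lists with mostly negative values were the oligodendrocyte markers, at 3141 to 5217 CPM in controls and 2860 to 4515 CPM in KO mice (10 of 10 negative, median -0.14), their precursor markers (6 of 8 negative, median -0.11), the dentate granule markers, at 1086 to 1211 CPM and 973 to 1176 CPM (8 of 10 negative, median -0.083), and the interneuron markers, at 1210 to 1414 CPM and 1186 to 1335 CPM (12 of 14 negative, median -0.041). The CA1 markers (7 of 10 positive), the CA2 and CA3 markers (8 of 10), the astrocyte markers (9 of 10) and the choroid plexus and ependymal markers (3 of 3 tested) had medians of 0.09, 0.049, 0.024 and 0.074. T cell, monocyte and blood markers held 2.73 to 5.08 CPM in controls and 2.54 to 6.06 CPM in KO mice, summed over 12 genes. Some of these medians differed between the sexes, each with 2 mice per guide. The microglia median was -0.049 in males and 0.32 in females. The oligodendrocyte median was -0.37 in males and -0.011 in females, and that of their precursors -0.27 and 0.10. In the cell type lists other than these, the male and female medians had the same sign. The part of these cell types in the Crem values was not tested, beyond the fit with dentate markers as a covariate given above.

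For the 3 members that varied most over the 8 libraries, the genes with the most similar profile were looked up among 13871 genes with a mean CPM of at least 1. Likeness was the root mean square difference of log2 CPM after centring each gene. Nearest to Crem were Dhps (0.066), Selenbp1 (0.074) and Rabepk (0.075), against an SD of 0.18 for Crem itself. Nearest to Crtc3 were Pnkd (0.027), Sdc3 (0.032) and Srcin1 (0.037), against an SD of 0.17. Pnkd, Sdc3 and Srcin1, with 47.6%, 58.7% and 59.2% GC, were lowest or next to lowest in control 3 and KO 1 and highest in KO 4, as Crtc3 was. Nearest to Ppargc1a were Mdga2 (0.034), Dio2 (0.041) and Rgs20 (0.045), against an SD of 0.15, and all 3 were highest in control 4, as Ppargc1a was. These likenesses are descriptions only.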

How the data were processed

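The authors deposited raw read counts per Ensembl gene, 1 file per mouse; a table with 8 further columns of the same series was not used here. The build mm10 and the tools HTSeq 2.0.1, TopHat2 2.1.1 and Trimmomatic 0.33 are named, without roles, per the submitters' processing notes; strand setting, annotation release and filters of the counting are not given in the sources read. Per the labels' protocols, libraries came from a stranded mRNA kit. No member shares exons with a gene that had counts on either strand in GENCODE M21. Exons of 2 genes with 0 counts overlap members, Gm6225 with Crem (472 bases, opposite strand) and Gm23880 with Ep300 (54 bases, same strand). How reads in these shared bases were counted is not given, so a loss of reads there cannot be seen.

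Counts were tested in edgeR 4.0.16 (R 4.3.3): TMM scaling, filterByExpr by group (minimum count 10, minimum total 15), quasi-likelihood F test, sex as covariate, 5 residual degrees of freedom, Benjamini-Hochberg adjustment over 14788 genes, threshold 0.05. SE is the log2 fold change divided by the square root of F. Log2 CPM used a prior count of 2. Of 37315 identifiers 35449 had a symbol and a length. The 28 pairs of libraries differed by 3.44 to 16.7 times the counting variance, so none was a copy. The procedure was tested on simulated counts. Alternatives were RLE and upper quartile scaling, other filters, DESeq2 1.42.0, limma voom (limma 3.58.1), other covariates and leaving out each library.

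Named genes were the members, Sik3, the 3 genes with the smallest p of each pathway list, and the 3 nearest profiles of the 3 most variable members, with Wfs1, Fibcd1 and Prox1 as defining cell type genes; Sik1, Sik2, Fos and Pvalb were named after their values were seen. Members and lists were chosen with earlier results of these data known.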

Additional observations from a re-analysis of the deposited data

How the results depend on the processing

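Under 17 alternatives for each of the 9 genes, 148 of 153 log2 fold changes kept their sign and their side of the threshold and 5 changed sign, none of them past the threshold. Creb1 was at -0.00063 by DESeq2, and from -0.056 to 0.031 when 1 library was left out. Leaving out 1 library gave -0.012 to 0.084 for Crtc2, which was negative without KO 4, and -0.15 to 0.0066 for Ppargc1a, which was positive without control 4. Crtc1 ran from 0.039 to 0.18 and Crtc3 from 0.034 to 0.21, both highest without control 1. In that edgeR fit their unadjusted p was 0.0125 and 0.0477, and 1336 of 14961 genes were under 0.05, against 416 of 14788 in the main fit. The number of genes under 0.05 was 1634 of 14980 without KO 1, and 759 of 14788 with the GC slope as a covariate. It was 296 to 367 when any other library was left out. The count of members called was 0 in every fit for guide, interaction and sex, and the smallest adjusted p of Crem was 0.439, without KO 1. Over all genes the count called for the guide was 84 with no filter on low counts, 0 with dentate markers as a covariate, and 0 to 2 when 1 library was left out (0 without control 2, control 3, KO 2 or KO 3, and 1 without control 4), against 2. The cause was not tested. No paired analysis was possible because the labels give no replicate numbers; the numbers used here follow listing order and only name the mice. The lowest counts of the 9 genes were 158 to 2117 reads, with a counting error of 2.17% to 7.96% there, against a coefficient of variation over the 8 libraries of 4.35% to 12.9%.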
